A study of Homo sapiens with 2 samples.

Results

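ISG15 is a ubiquitin-like protein that is attached to other proteins in the interferon response and taken off again. The 6 genes described here encode the steps of that cycle. ISG15 is the modifier, UBA7 the activating enzyme (E1), UBE2L6 the conjugating enzyme (E2), HERC5 the main ligase (E3) in human cells, HERC6 a close relative of it, and USP18 the protease that removes ISG15. They were chosen by name, and every IRF1 binding summit whose nearest gene in the authors' annotation was one of them was kept, at any distance. All 6 genes had a summit. Together they held 8 of the 1986 summits in the list.

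The summits come from chromatin immunoprecipitation followed by sequencing (ChIP-seq) of the transcription factor IRF1, an activator of interferon-stimulated genes, in NB4 cells. NB4 is an established acute promyelocytic leukemia line with the PML-RARA fusion, so both groups carry it. Cells received all-trans retinoic acid (ATRA) or DMSO for 4 hours, with 1 library in each group; the dose is not stated in the labels. The list analysed carries the name of the ATRA library, and the Control library was not analysed here, so no gain or loss under treatment was measured. A single library gives no spread between replicates and therefore no test of any difference between summits. The authors' peak score ran from 8.28 to 321 over the list, with a median of 25.2. Its scale is not given in the sources used here, so it serves only to rank summits within the list. The number of reads under each summit is also unknown, and cell type markers could not be checked from a list of summits.

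As background, the E1 activates ISG15 at the cost of ATP, the E2 receives it, and the E3 passes it to target proteins, many of them newly made at the ribosome. USP18 has a further role away from its protease activity, because it binds the interferon receptor chain IFNAR2 and dampens signalling. UBA7, also known as UBE1L, is known in promyelocytic leukemia cells as a retinoid-induced gene whose product lowers the PML-RARA protein. IRF1 recognises repeats of the bases GAAA, the core of the interferon-stimulated response element.

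The sequences shown first are those of the modifier and its ligase, whose promoters both hold such repeats and whose summits lie at opposite ends of the score range. They are RefSeq sequences of build GRCh38.p14, the same assembly as the authors' hg38, read 5′ to 3′ on the plus strand, which is the coding direction of both genes. Each runs from 250 bases before the RefSeq start to the last base before the first start given by either RefSeq or the authors. Capitals mark a pair of GAAA units spaced by 2 bases of any kind, on either strand. The ISG15 stretch is chr1:1013247-1013466 and the HERC5 stretch is chr4:88456869-88457116.
ISG15: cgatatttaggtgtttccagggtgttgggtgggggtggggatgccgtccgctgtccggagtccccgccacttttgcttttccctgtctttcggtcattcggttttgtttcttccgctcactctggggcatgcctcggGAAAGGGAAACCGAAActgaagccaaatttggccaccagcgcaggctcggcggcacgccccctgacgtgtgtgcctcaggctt
HERC5: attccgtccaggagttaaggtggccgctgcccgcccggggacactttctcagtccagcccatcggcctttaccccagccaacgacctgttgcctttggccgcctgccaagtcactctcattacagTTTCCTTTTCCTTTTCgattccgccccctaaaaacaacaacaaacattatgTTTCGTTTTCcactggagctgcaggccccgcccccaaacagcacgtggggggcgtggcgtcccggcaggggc

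The ISG15 summit was base 160 of the printed stretch, just after the capitals. The HERC5 summit was base 229, well past both of its runs of capitals. In ISG15 the repeats read as GAAA in the coding direction, and in HERC5 they read so on the opposite strand. Set in the same direction, a run of 18 bases from each promoter is compared below, with each GAAA in capitals (ISG15, chr1:1013384-1013401, plus strand; HERC5, chr4:88456992-88457009, minus strand).
ISG15: GAAAggGAAAccGAAAct
HERC5: GAAAagGAAAagGAAAct

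The runs were identical at 15 of 18 bases, and each held 3 GAAA units. The GAAA units, and the CT that ends each run, are fixed letters of the strings searched below. Nearly all of the identical bases were therefore set by how the runs were picked. Only the bases between the units were free to differ, so the count is no measure of likeness between the promoters.

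The modifier itself carried the strongest summit of the pathway. ISG15 had 1 summit, with a score of 251, at chromosome 1 position 1013406, which was the 10th highest of 1986. It was classed as promoter and lay 61 bp upstream of the authors' transcription start site (TSS). The summit sat outside the short gene, whose span in RefSeq is 1013497 to 1014540. Among the 672 protein-coding genes with a summit within 10 kb of their TSS, 98.8% had a lower highest score (95% Wilson interval 97.7 to 99.4, which covers counting error only, as do all intervals below).

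The activating and conjugating enzymes were near each other in rank, below the modifier. UBA7 had 1 summit, with a score of 68.8, at chromosome 3 position 49813964. It was classed as promoter and lay 6 bp upstream of the authors' TSS, the nearest of all 8 summits to a start. Its rank in the list was 296. UBE2L6 had 2 summits, and the higher one scored 64.7, which ranked 318. No replicate spread exists to set the difference from UBA7 against. In the same comparison with 672 genes, UBA7 was above 80.1% and UBE2L6 above 78.9%.

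The UBE2L6 summits were both in the first of 3 introns of the annotated transcript, downstream of the start. The higher one was at chromosome 11 position 57566333, 1374 bp from the authors' TSS. The lower one, with a score of 16.5, was at position 57567344, 363 bp from the TSS and 1011 bp from its neighbour. No other member had its highest summit more than 1 kb from the TSS. If only summits within 1 kb are read, the UBE2L6 score is therefore 16.5, above 18.8% of the 405 genes that have such a summit.

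The ligase family held a high and a very low score. HERC6 and HERC5 lie side by side on chromosome 4, with HERC5 starting 14022 bp beyond the end of HERC6. HERC6, which acts as the main ISG15 ligase in mice, had 2 summits. The higher one scored 116.7 (119th) at position 88379398, in the first of 21 introns of the annotated transcript and 659 bp downstream of the authors' TSS. The lower one scored 16.2 at position 88378971, in the first of 23 exons and 232 bp downstream. HERC5 had 1 summit, with a score of 10.4 at position 88457097, classed as promoter and 20 bp upstream of the TSS. Only 1.16% of all summits scored lower.

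The protease had the next highest score after the modifier. USP18 had 1 summit with a score of 212 at chromosome 22 position 18150098, the 26th highest of the list. The authors' annotation placed it in the 5′ UTR, in the first of 11 exons and 107 bp downstream of the TSS. The RefSeq gene span starts only at 18150170, so by that start the same summit lay 72 bp upstream of the gene. USP18 has a close pseudogene copy on the same chromosome, USP41P, which was the nearest gene of 0 summits. The handling of reads that match both copies is not given in the sources used here.

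**Figure D1:**
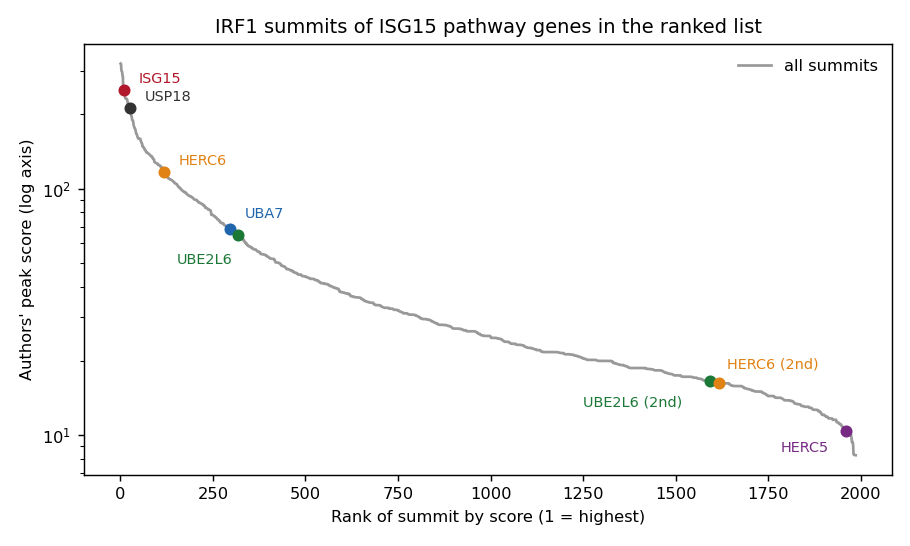
Authors' peak score (log axis) against rank for all 1986 summits (grey line), with the 8 summits of the 6 genes as coloured points. ISG15 and USP18 sit at ranks 10 and 26, HERC5 at rank 1959, and the lower summits of UBE2L6 and HERC6 at 16.5 and 16.2.

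In pathway order the highest scores were thus 251 for the modifier, 68.8 for the E1, 64.7 for the E2, 10.4 for HERC5, 116.7 for HERC6 and 212 for the protease. ISG15 and USP18, the modifier and the protease, had higher scores than the other 4 genes. This order rests on the highest score of each gene in 1 library. The median of the 6 was 92.7, against 28.8 for the 672 protein-coding genes with a summit within 10 kb (quartiles 18.1 and 53.5). A summit at any distance was found for 6 of 6 members, against 6.38% of 19974 protein-coding genes. Within 10 kb the count was also 6, against 3.36%, and within 1 kb it was 6, against 2.03%. The members are established interferon-stimulated genes, and the pathway was picked with earlier results of these data known, so the count is a description.

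The summits clustered at the starts of the genes. Of the 8, 7 lay within 1 kb of the authors' TSS and 3 within 100 bp. Over the whole list 27.1% of summits lay within 1 kb and 10.9% within 100 bp. By class 3 were promoter, 3 intron, 1 exon and 1 was 5′ UTR. Relative to the authors' TSS, the summits of ISG15, UBA7 and HERC5 were upstream and the other 5 downstream. Relative to the start of the RefSeq gene span, 4 were upstream, because the USP18 summit changed side. The authors' start and the RefSeq start differed by 2 bp for HERC5, 5 bp for UBA7, 30 bp for ISG15, 113 bp for HERC6 and 179 bp for USP18. For UBE2L6 the start of the RefSeq gene span lay further upstream, so that its summits were 591 and 1602 bp from it. RefSeq gives another start for this gene at position 57567672, which is downstream of the authors' TSS. Both summits lay downstream of that start too. The side therefore depended on the start used for the USP18 summit, and the other 7 summits kept theirs.

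**Figure D2:**
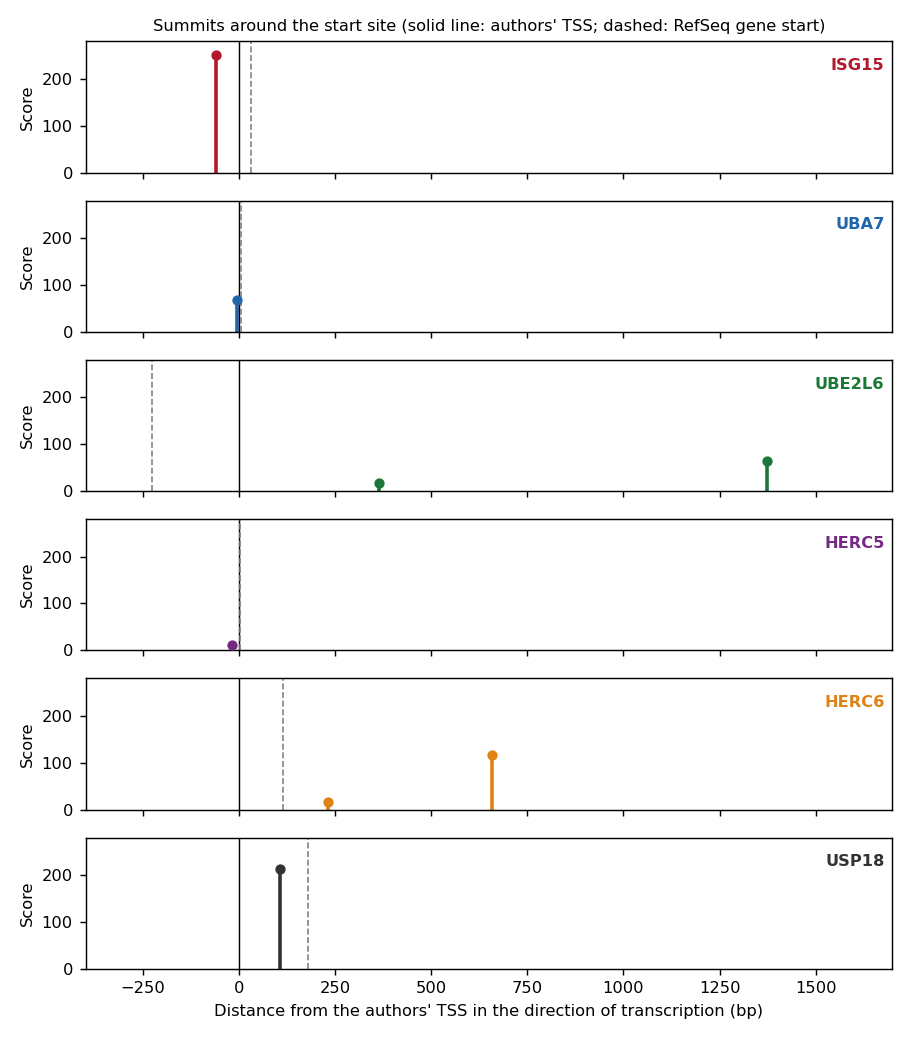
Score of each summit (linear axis from 0) against its distance in bp from the authors' TSS, 1 panel per gene; the solid line is the authors' TSS and the dashed line the RefSeq gene start. Only UBE2L6 and HERC6 have 2 summits, and in USP18 the summit falls between the solid and the dashed line.

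UBE2L6 and HERC6 shared a layout of 2 summits downstream of the TSS, with the farther one higher. The summits of HERC6 were 427 bp apart. More than 1 summit was found for 2 of the 6 members. Among protein-coding genes 141 had more than 1, which is 0.706% of all 19974. Only 1275 of these genes were the nearest gene of any summit. Since every member had one, the like share is 141 of these 1275, against 2 of the 6 members. Exactly 2 summits within 2 kb of the TSS were found for 32 protein-coding genes, UBE2L6 and HERC6 among them. In 6 of these 32 both summits were downstream and the farther one was higher, and 4 of the 6 were other genes.

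Other summits around the members were counted too, but no share for other loci was computed, so the counts are a description. Within 100 kb of the ISG15, UBE2L6 and USP18 spans there was no summit besides their own. Near UBA7 there was 1 other, of MST1R, a receptor kinase gene, with a score of 22.1 and 87913 bp beyond the UBA7 span. The coding genes next to the members were HES4 and AGRN (ISG15), INKA1 and TRAIP (UBA7), SMTNL1 and SERPING1 (UBE2L6), PPM1K (HERC6), PYURF (HERC5), and TUBA8 and GGTLC3 (USP18). None of these 10 was the nearest gene of a summit or held one in its span. Over all protein-coding genes 6.38% were the nearest gene of one, so none among 10 is no finding about these genes. INKA1 lies 179 bp from UBA7, at the end of that 8745 bp gene that is away from its summit. SERPING1, the complement inhibitor, is itself known as interferon-inducible. HERC3, the next member of the ligase family on the same chromosome, had no summit either.

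A pair of GAAA units spaced by 2 bases was then searched in RefSeq promoter windows, which run from 250 bases before to 50 bases after each start, on both strands and with overlapping matches counted. Windows were found for 4 of the 6 members, namely ISG15, HERC5, HERC6 and UBE2L6, the last with 2 windows. ISG15 had 2 overlapping matches and HERC5 had 3. HERC6 and UBE2L6 had none in their windows, but none of their summits lies inside them, so the bases under those summits were not searched. Of 22132 windows of protein-coding genes, 3.17% held a match and 0.0361% held 3 or more, as HERC5 did. A stricter string, the same pair followed by CT, was present once in ISG15 and once in HERC5, and in 0.289% of all windows.

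The position of the summit relative to the matches differed between the modifier and the ligase. In ISG15 the matches spanned bases -113 to -98 from the RefSeq start, counted as base 0, and the summit was at -91, so it was 11.5 bp from the centre of the nearest match. In HERC5 a pair of matches spanned -125 to -110 and a single one -74 to -65, while the summit was at -22, 47.5 bp from the nearest centre. Over the 81 summits that lay in a window with a match, the median distance was 15.5 bp (quartiles 10.5 and 23.5). The ISG15 distance was larger than that of 22 of them and the HERC5 distance larger than that of 73. With 1 library, the error of a summit's position cannot be given.

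**Figure D3:**
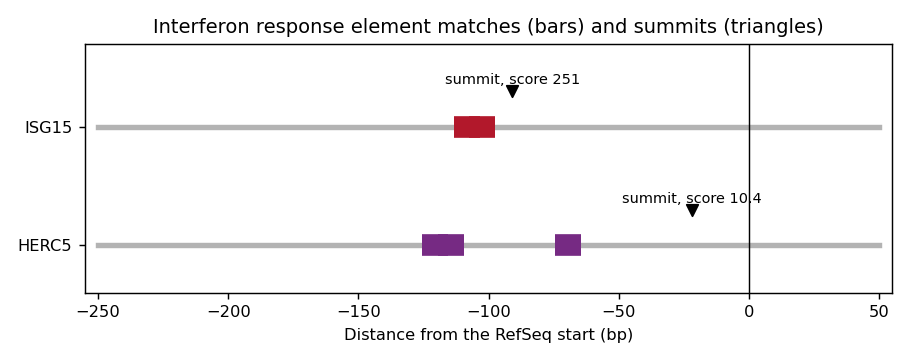
Promoter windows of ISG15 and HERC5 in bp from the RefSeq start; bars are the matches and triangles the summits. The ISG15 summit at -91 adjoins its matches, whereas the HERC5 summit at -22 lies between its nearest match and the start.

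Windows with a match held a summit more often than others, and HERC5 was the weakest such case. A summit lay in 91 of 702 windows with a match (13.0%, 95% Wilson interval 10.7 to 15.7) and in 158 of 21430 without (0.737%, 0.631 to 0.861). Some windows overlap and share a summit, so these intervals, which take windows as separate, are too narrow. The windows with a summit came to 222 different summits, 81 with a match and 141 without. The median score was 48.7 with a match (quartiles 28.0 and 110.0) and 20.0 without (16.2 and 31.5). The HERC5 score of 10.4 was the lowest of the 81; the next lowest was 11.7. Of the 8 windows with at least 3 matches, 4 held a summit. Beside HERC5 these belonged to IFI6, an interferon-induced mitochondrial protein (94.6), IFIH1, the RNA sensor MDA5 (59.8), and C2CD2 (43.0); the last 3 were named after their values were seen.

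The stricter string was present in 64 windows, of which 17 held a summit (26.6%, 17.3 to 38.5). These came to 14 different summits, a subset of the 81 above, so this interval is too narrow as well. HERC5 already had the lowest score of the 81, so its place among the 14 was fixed. ISG15 was not the highest of the 81, since PSME1, named after its value was seen, scored 321. The median score of the 14 was 65.7. ISG15 had the highest of the 14 scores and HERC5 the lowest. The others included DTX3L, an E3 ligase that shares its promoter with PARP9 (240.0), MX1, an antiviral GTPase (108.8), EIF2AK2, the kinase PKR (104), and IFIT1, an RNA-binding antiviral protein (76.5); these were also named after their values were seen. The spread from 10.4 to 251 was thus found among promoters that share the fixed letters of this string, but not at like distances from it. In ISG15 the stricter string spanned -107 to -96, with the summit at -91. In HERC5 it spanned -127 to -116, with the summit at -22, and the match nearest that summit lacked the CT.

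**Figure D4:**
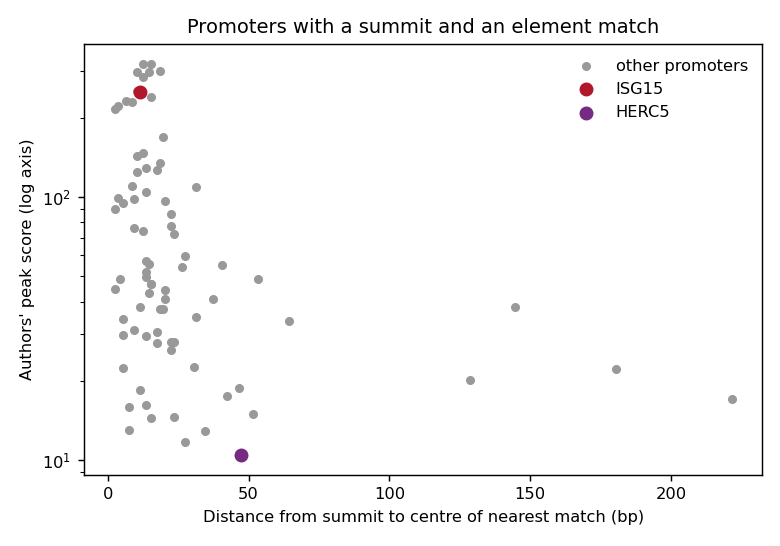
Authors' peak score (log axis) against the distance in bp from the summit to the centre of the nearest match, for the 81 summits in promoter windows with a match. ISG15 (11.5 bp, 251) lies in the upper left and HERC5 (47.5 bp, 10.4) at the bottom.

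Strings of other factors were searched in the same member windows. The STAT element TTCNNNGAA was found in 0 of the 5 windows, against 6.79% of all windows. Direct repeats of the retinoid half-sites AGGTCA or AGTTCA, spaced by 2 or 5 bases, were found in 0 of the 5 and in 0.0271% of all windows. With backgrounds this low, the absence of either kind of string from 5 windows carries no information on the members. The windows of UBA7 and USP18 were not analysed here.

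The relatives of the pathway genes in other ubiquitin-like systems had a summit about as often as protein-coding genes at large. Over lists of other E1, E2, HERC and USP genes, 4 of 97 genes had one within 10 kb (4.12%, 1.62 to 10.1), near the 3.36% of all protein-coding genes. Summing these 4 lists was decided after their counts were seen. None of 9 E1 genes had one (0 to 29.9%), among them UBA1, the E1 of ubiquitin. Nor did any of the 4 other HERC genes (0 to 49.0%). Both intervals hold the 3.36%, so lists this short do not set these genes apart from others.

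Of 35 E2 genes, 2 had a summit within 10 kb. They were UBE2D3, a general ubiquitin E2, with a highest score of 74.0 at 162 bp, and UBE2L3, a close relative of UBE2L6, with 29.7 at 3513 bp. Of 49 USP genes, 2 had one, namely USP33 (91.7 at 642 bp) and USP25 (18.7 at 2486 bp). UBE2D3 had another summit, with a score of 13.0 at -8 bp. The highest summits of UBE2D3 and USP33 thus scored above the highest ones of UBA7 and UBE2L6. The relatives' scores overlapped those of the members. A summit was found for 4 of 97 relatives and 6 of 6 members. The members were picked with earlier results of these data known, so these shares do not compare like sets.

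Proteins that work with ISG15 or are modified by it made up a pair of further lists. A gene held by 2 lists was counted only in the first. Of 10 partners written down, USP5, USP14 and USP21 were therefore counted with the USP genes, and they had no summit within 10 kb. Of the 7 partners left, 2 had a summit. They were STAT2, which carries USP18 to the interferon receptor (74.8 at -228 bp), and TRIM25, a ligase reported for ISG15 (27.0 at -8 bp). ARIH1, another such ligase, IFNAR2, SKP2, ITGAL and ITGB2 had none within 10 kb. UBE2N, a further target, was counted with the E2 genes and had no summit within 10 kb. Of 16 counted proteins known as ISG15 targets, 8 had a summit (50%, 28.0 to 72.0), again against 3.36%. Leaving out genes without a summit made the shares of both lists higher. Several of these targets are interferon-stimulated genes themselves. The highest scores among those counted were of RIGI, a viral RNA sensor (173 at -32 bp), MX1 (108.8 at 47 bp), EIF2AK2 (104 at 52 bp), CCND1, a cell cycle cyclin (101.5 at 1701 bp), and PML, the organiser of nuclear bodies (77.2 at 125 bp).

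**Figure D5:**
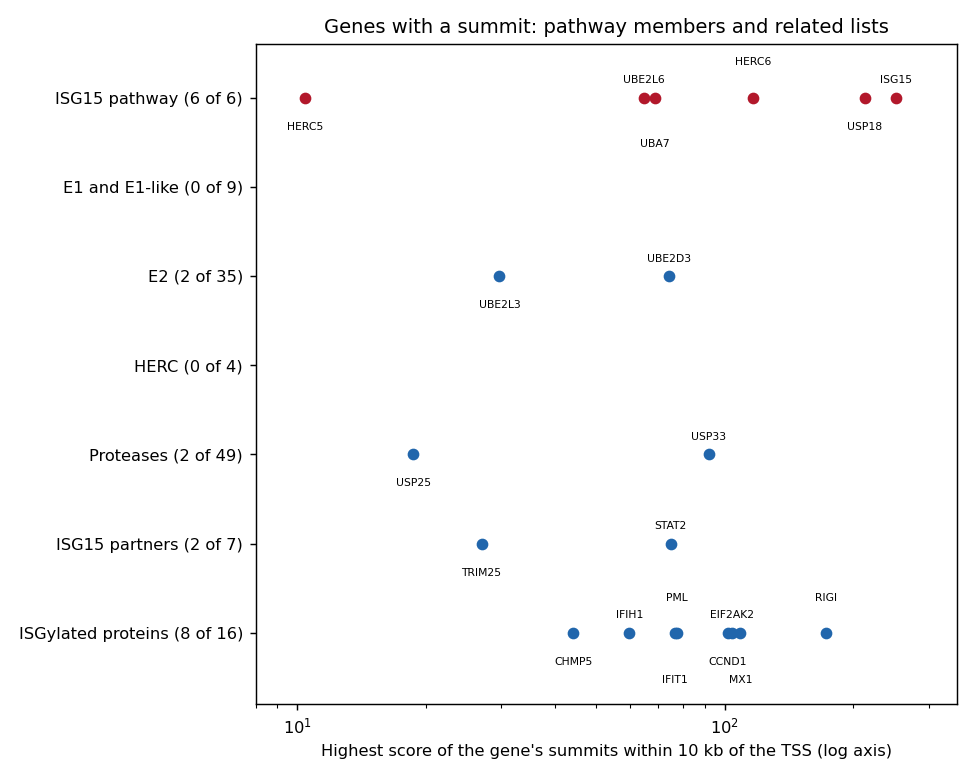
Highest score of each gene's summits within 10 kb of the TSS (log axis), for the 6 pathway genes (red) and the genes of 6 related lists that had one (blue), with the count for each list on the left. The pathway genes range from 10.4 to 251, and the short lists of 9 other E1 and 4 other HERC genes show none.

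The protein-coding genes just above and below each member in score, among the 405 with a summit within 1 kb, were the genes most alike to it by that measure. RBCK1 (253) and PARP9 (240.0) flanked ISG15, and OGFR (215.6) and DNPEP (203) flanked USP18. ZNRF2 (70.5) and XPO6 (68.0) flanked UBA7, and DGLUCY (118.5) and FOXP1 (115.7) flanked HERC6. HERC5 lay between BHLHE40 (11.1) and PHTF2 (10.4). UBE2L6, read by its summit within 1 kb, followed MRPS31 (16.6) and was tied with GPN1 (16.5). The measure of likeness is the score in 1 library.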

How the data were processed

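One deposited table of IRF1 ChIP-seq summits was used. Per the file headers, the authors annotated summits with HOMER's annotatePeaks.pl against hg38. Bowtie2 2.2.9 and MACS 1.4.2 are named in the submitters' processing notes; the background, threshold and duplicate handling of the calling are not stated there. Were Control reads the background, a low score need not mean little binding. The score of each summit is the authors' deposited value, and the distance to the TSS is signed, negative upstream. Nearest genes were matched by Entrez identifier to RefSeq genes of GRCh38.p14 (1977 of 1986 summits). Positions are 1-based. Background shares are over 19974 protein-coding genes on autosomes or chromosome X, and over 22132 promoter windows of 15812 of them. Strings were searched with a scanner tested on simulated data, where it found 100% of 200 planted copies of each of 5 kinds of string. No test across samples was possible with 1 library per group. Intervals are 95% Wilson intervals. Named genes were all members, up to 5 highest-scoring genes of each related list, genomic neighbours and score neighbours; some listed genes and a list of other modifiers are not reported here. The members, lists and rules were chosen with earlier results of these data known. Python 3.11.15, pandas 2.3.3 and scipy 1.17.1 were used. The alternatives tried were TSS distances, a score limit, gene spans extended by 10 kb, merging of summits under 200 bp apart, other comparison genes, and other strings and windows.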

Additional observations from a re-analysis of the deposited data

How the results depend on the processing

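No paired analysis was possible because the summits come from a single library, and no replicate could be left out. Over 41 alternative values, 33 were labelled close to the reported one and 8 moved. The tally is no measure of robustness, because some values could not move. Counts of 0 within 10 kb, as for the E1 and HERC lists, stay 0 under any narrower limit. The fall from 6 to 5 members described next was itself labelled close. All 6 members had a summit under each distance limit, with gene spans extended by 10 kb and from the RefSeq start; with the 998 summits at or above the median score 5 remained, since HERC5 was lost. That limit left 5 of the 8 member summits and 1 of the 2 USP relatives. Within 1 kb, 1 E2 relative and 1 USP relative remained of 2 each. With windows from 100 bases before the start, 1 member in place of 2 held a GAAA pair, because the ISG15 matches begin further upstream. Each of these moves follows from the narrower limit. The percentile among genes moved for 3 members, UBE2L6 (18.8 within 1 kb), HERC6 (87.9 within 1 kb) and USP18 (98.4 over all genes at any distance). The use of the RefSeq start was chosen after seeing the data; it left 4 in place of 5 summits downstream. Depth per summit is unknown, so a missing summit does not show missing binding.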
